A study of Mus musculus with 2 samples.

Results

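The genes that load peptides onto MHC class I molecules, together with the inducible subunits of the immunoproteasome, were compared between LT-HSCs (long-term hematopoietic stem cells) of p38α+/+ and p38αΔ/Δ mice. The set holds 10 genes, B2m, H2-K1, H2-D1, Tap1, Tap2, Tapbp, Psmb8, Psmb9, Psmb10 and Nlrc5, of 22555 named genes on the array. Every probe other than a control probe that carries one of these gene names was taken, which gave 14 probes in 33 spots. The cells came from the bone marrow of C57BL/6J mice aged 2 years. The p38αΔ/Δ mice carried floxed p38α alleles and CAG-CreERT2, a tamoxifen (TAM)-inducible Cre under a ubiquitous promoter, which does not restrict deletion to HSCs, and TAM was given about 1 year before the cells were sorted. The controls, called p38α+/+, carried the same floxed alleles without Cre and received TAM as well. The labels give the sorted cells as CD150+CD48-Flt3-CD34- LSK, the methods add CD41-, and the design text names only CD34- and Flt3-. Cy3-labelled RNA was hybridized to Agilent arrays of 1 colour, and each genotype had 1 array, both on a single slide. The number of mice behind each array is not given. Since each genotype was measured once, the differences below lack any replicate check and carry no p-value.

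Nearly every nucleated cell displays short peptides from its own cytosol on MHC class I molecules, where CD8+ T cells and NK cells inspect them. The proteasome cuts proteins into peptides, the transporter TAP pumps these into the endoplasmic reticulum, tapasin helps to fit them onto a heavy chain paired with β2-microglobulin, and the finished complex moves to the cell surface. Interferon-γ swaps the constitutive catalytic subunits of the proteasome for inducible ones, which makes an immunoproteasome, and raises most other genes of the route. HSCs carry class I molecules on their surface, and interferons are known to act on these cells directly.

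Such signals are known to work through short elements in promoters. The stretches below are shown because they carry letters of those elements or are shared by a pair of genes. RefSeq's promoter windows on GRCm38.p6 reach from 250 bases before the start site and are 300 bases long, and a window was found for 8 of the 10 genes, all but Tap2 and Nlrc5. Psmb9 and Tap1 lie head to head, so that their windows overlap by 275 bases and only 225 bases separate the start sites. That stretch lies at chr17:34187331-34187555 and is printed on the strand of Tap1. Capitals mark CCAAT, the Y box bound by the factor NF-Y, which starts 222 bases before the Tap1 start and lies beside the Psmb9 start.
Psmb9 and Tap1: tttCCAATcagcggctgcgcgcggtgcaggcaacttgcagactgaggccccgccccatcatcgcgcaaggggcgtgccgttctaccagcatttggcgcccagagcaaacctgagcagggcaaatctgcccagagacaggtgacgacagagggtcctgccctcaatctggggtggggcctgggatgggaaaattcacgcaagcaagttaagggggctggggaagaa
The classical heavy chain genes H2-K1 and H2-D1 share a run of 47 bases upstream of their starts. The stretch printed here was chosen for that run, and 76 of its 77 bases are identical between them. Over all 190 upstream bases compared in the same register, 166 (87.4%) are identical. The H2-K1 stretch lies at chr17:34000412-34000488 on the minus strand and the H2-D1 stretch at chr17:35262893-35262969 on the plus strand. Capitals mark the NF-κB site, where matches on both strands overlap.
H2-K1: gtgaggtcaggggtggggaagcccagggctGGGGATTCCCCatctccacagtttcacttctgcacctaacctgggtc
H2-D1: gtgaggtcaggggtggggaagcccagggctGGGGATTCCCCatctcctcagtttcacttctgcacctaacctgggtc
In B2m, at chr2:122147523-122147582 on the plus strand, capitals mark an ISRE (GAAANNGAAA, the element bound by interferon regulatory factors), 139 bases before the start, followed by an NF-κB site.
B2m: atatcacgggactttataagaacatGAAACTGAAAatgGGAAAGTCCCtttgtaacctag
In Psmb8, at chr17:34198073-34198131 on the plus strand, capitals mark a GAS (TTCNNNGAA, the interferon-γ-activated site), 97 bases before the start.
Psmb8: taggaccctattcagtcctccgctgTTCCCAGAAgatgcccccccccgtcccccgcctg

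With both strands searched over 32851 promoter windows of this length, the ISRE letters occurred in 3.44% of all windows and, among the 8 genes, in B2m only. The GAS letters occurred in 8.30% of windows and in Psmb8 only. The NF-κB site was found in 8.46% of windows and in B2m, H2-D1 and H2-K1. CCAAT occurred in 37.4% of windows and in 6 of the 8 genes, B2m, H2-D1, H2-K1, Psmb9, Tap1 and Tapbp. For Psmb9 and Tap1 this is the same CCAAT, in the stretch that their windows share, counted for each gene. In B2m the ISRE and NF-κB letters do not overlap. A match describes the letters of the window and is not evidence that a factor binds there. Only fixed letters were searched, and variants of an element were not. A gene without a match can therefore still carry such an element, also within the stretches printed above.

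Both arrays were of similar quality, with 67.9% and 69.0% of probes well above background and 0 saturated spots. Mapk14, which encodes p38α, had scaled log2 signals of 2.34 and 2.31 at its brighter probe and of 2.08 and 2.03 at the other, differences smaller than the spot error. The exons that Cre removes are not given in the sources used here, so whether these probes can show the deletion is not known, and the second sample is called the array labelled p38αΔ/Δ. All 12 HSC markers, among them Procr, Kit and Hlf, were well above background on both arrays. The same held for 9 of 10 granulocyte and 7 of 8 erythroid markers, so detection alone does not identify the cells. Scaled means that each array's 75th percentile over all probes was subtracted. Differences are log2 values, array labelled p38αΔ/Δ minus p38α+/+ array. The standard deviation (SD) of such a difference between spots of the same probe had a median of 0.12 over 306 probes, and the scanner software's own signal errors gave 0.20 to 0.21 for the brightest probe of each of the 10 genes. Both describe error within the arrays and not between mice.

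Class I presentation and immunoproteasome genes were mostly lower on the array labelled p38αΔ/Δ, by modest amounts. Of the 10 genes, all well above background on both arrays, 8 were lower and 2 were higher, against 52.4% of 17201 measured genes lower. Their median difference of −0.39 on the log2 scale, or 1.31-fold lower, compares with −0.03 over all genes. The log2 difference of 6 of the 10 was at or below the lower quartile of that of all genes (−0.38), which by definition 25.0% of genes are, and H2-K1 and H2-D1 lay just inside it. Tap1 alone was at least 2-fold lower, against 6.71% of all genes, and 0 were at least 2-fold higher, against 4.10%. The difference exceeded the software's error in 9 of the 10 genes, all but Tap2, and exceeded it more than 2-fold in 5.

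Brightness matters to this comparison, since 9 of the 10 genes lay among the 4300 brightest. Over those 4300 genes the lower quartile of the difference was −0.31 and the median −0.09, and 59% were lower. Of those 9 genes, 7 were lower, 6 were at or below −0.31 and their median was −0.39. A loess between the arrays, which removes a trend with brightness, gave a median of −0.34 over the 10 genes.

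**Figure D1:**
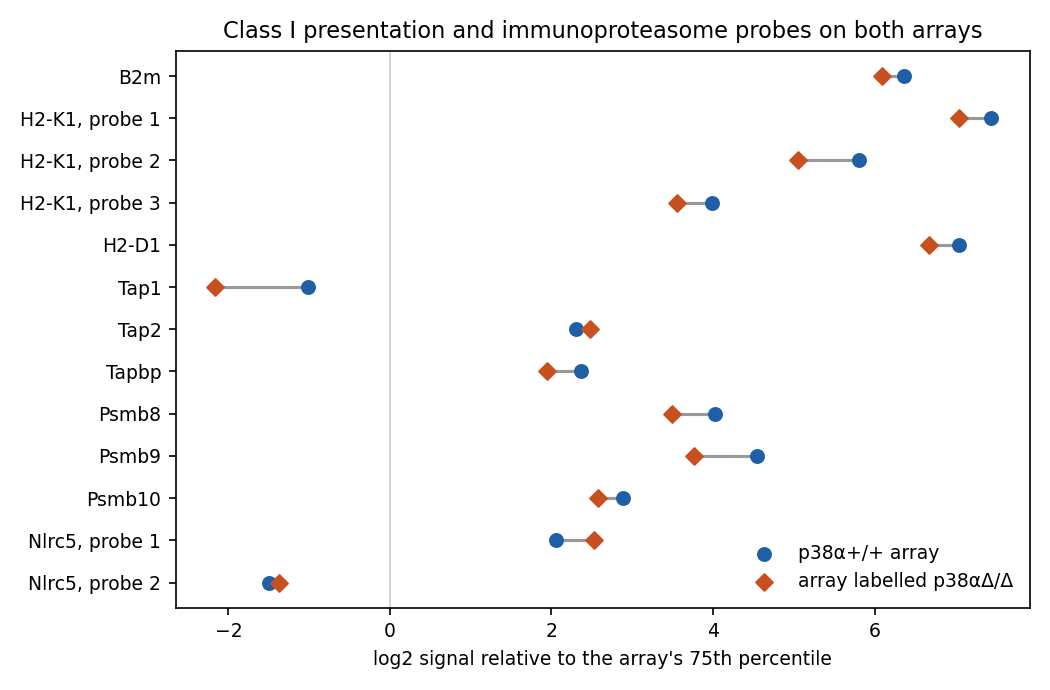
Scaled log2 signal (x axis, 0 is the 75th percentile of the array) of the 13 probes well above background, with circles for the p38α+/+ array, diamonds for the array labelled p38αΔ/Δ and a line joining them. The diamond lies to the left of the circle for every probe except the probes of Tap2 and Nlrc5, and the longest line is that of Tap1 (−1.01 to −2.17).

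The molecule that presents the peptide is a heavy chain, encoded in mice of this strain by H2-K1 and H2-D1, and the shared light chain β2-microglobulin, encoded by B2m. B2m (probe at chr2:121978401-121978460 of build mm9) went from a scaled log2 signal of 6.36 in p38α+/+ to 6.09 on the array labelled p38αΔ/Δ. Its log2 difference was −0.26, and both of its 2 spots were lower. H2-D1 (chr17:35403886-35403945) went from 7.05 to 6.67, a log2 difference of −0.39 or 1.31-fold. Both lie above the software's error of 0.20, B2m by little.

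H2-K1 has 3 probes, and all were lower on the array labelled p38αΔ/Δ. The brightest (chr17:34133055-34133114), spotted 10 times, had signals from 6.99 to 7.61 with a median of 7.49 on the p38α+/+ array, and from 6.95 to 7.13 with a median of 7.05 on the other. The ranges overlapped through 1 spot of the p38α+/+ array, at 6.99, the next lowest being 7.33. The mean signals of 7.44 and 7.05 gave a log2 difference of −0.39 ± 0.17 (SD over 10 spots), with 9 of 10 spots lower. The second probe (chr17:34133984-34134043) went from 5.81 to 5.05, a log2 difference of −0.76, and the dimmest, to which the files assign no position, from 3.99 to 3.55, a difference of −0.44. The probes of H2-K1 thus agree in direction and range from 1.31-fold to 1.7-fold.

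Class I genes are close relatives, and a probe can bind RNA of more than 1 of them. The brightest H2-K1 probe shares no run longer than 8 of its 60 bases with any of 36 probes of other class I genes, and the H2-D1 probe no run longer than 12 with any of 38. The second H2-K1 probe, the one at −0.76, shares a run of 29 bases with a probe of H2-T23, and the dimmest one of 13. Runs shared with the transcripts of relatives, rather than with their probes, were not examined.

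The peptide transporter is a pair of chains encoded by Tap1 and Tap2, and tapasin, encoded by Tapbp, bridges it to the empty class I molecule. The difference of Tap1 was the largest in size of the 10 genes in all but 1 of the processings tried. Its 1 probe (chr17:34330854-34330913), spotted 10 times, gave signals from −1.17 to −0.78 with a median of −1.04 on the p38α+/+ array, and from −2.51 to −1.92 with a median of −2.14 on the other. The spots of the arrays did not overlap, and all 10 were lower. The log2 difference of −1.17 ± 0.17 (SD over 10 spots) corresponds to a 2.24-fold lower signal. The probe is dim, with mean intensities of 71.6 and 25.7 units above background. With normexp background correction, which adds an offset of 50 units to every spot, the difference was −0.44, and with an offset of 1 it was −1.01.

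**Figure D2:**
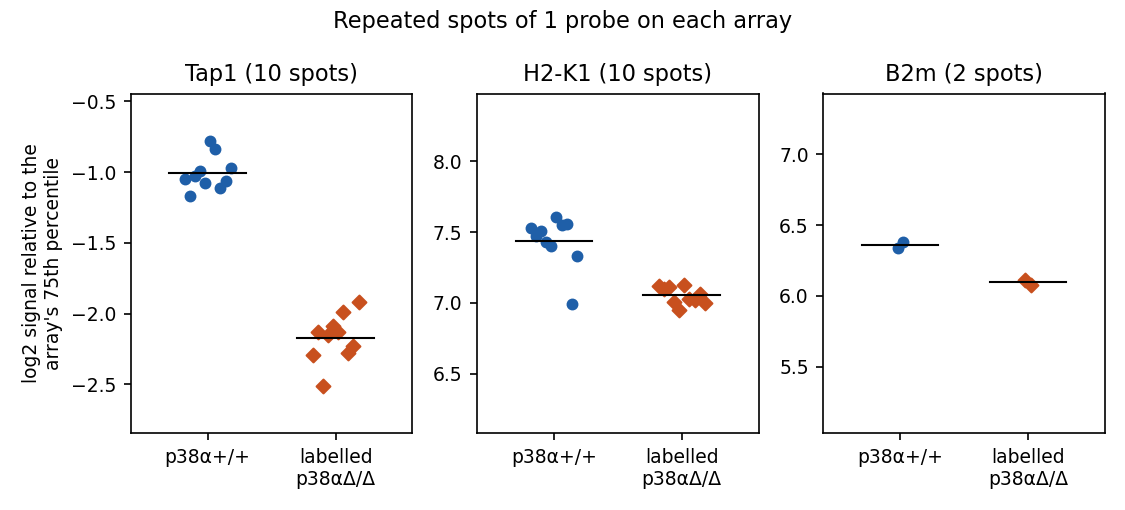
Scaled log2 signal (y axis) of each repeated spot of the Tap1, H2-K1 and B2m probes, with circles for p38α+/+ and diamonds for the array labelled p38αΔ/Δ, the mean as a line and the same span of y axis in each panel. The Tap1 spots are separate (lowest −1.17 against highest −1.92), and 1 H2-K1 spot of the p38α+/+ array (6.99) lies among those of the other array.

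Tap2, the partner of Tap1, did not share the lower signal. Its probe (chr17:34353116-34353175) went from 2.30 to 2.48, a log2 difference of 0.18, which is below the software's error of 0.20. Tapbp (chr17:34065963-34066022) went from 2.36 to 1.94, a log2 difference of −0.42 or 1.34-fold lower. The difference of Tap1 and that of Tap2 lay farther apart than the software's error.

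The immunoproteasome is built with Psmb8 (β5i), Psmb9 (β1i) and Psmb10 (β2i), and the signals of all were lower on the array labelled p38αΔ/Δ. Psmb9 went from 4.55 to 3.77 at its bright probe (chr17:34319174-34319233), a log2 difference of −0.78 or 1.72-fold. A second Psmb9 probe (chr17:34322762-34322821) was well above background on neither of them and gives no difference. Psmb8 (chr17:34337771-34337830) went from 4.03 to 3.49, a difference of −0.53 or 1.45-fold. Psmb10 (chr8:108459677-108459736), which lies outside the MHC, went from 2.89 to 2.57, a difference of −0.32 or 1.25-fold. Psmb9 and Tap1, which share the promoter stretch printed above, had the largest differences of the 10 genes with the processing used here.

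The subunits that these replace were lower too. Psmb8 takes the place of Psmb5 (−0.22), Psmb9 that of Psmb6 (−0.31) and Psmb10 that of Psmb7 (−0.61). The inducible subunit differed more than its constitutive counterpart by 0.31 and 0.47 in the first pairs and less by 0.29 in the last. Each single difference carries a software error of 0.20, and a gap between 2 of them carries more. Over the other subunits of the 20S core, 10 of 11 were lower with a median of −0.35, led by Psmb1 (−0.80) and Psmb2 (−0.66), while Psmb4 was at 0.01. Lower signals were thus found among the inducible and the constitutive subunits.

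The caps and helpers of the proteasome showed values of similar size. Psme1, which encodes a chain of the interferon-inducible PA28 cap, went from 6.42 to 5.99, a difference of −0.43 over 8 spots. Pomp, the factor that assembles new proteasomes, was at −0.39, whereas Psme3, which encodes a nuclear cap, was at 0.44. Of 4 measured genes 3 were lower. No probe carries the name Psme2, the other chain of PA28. The copy Psme2b, named after its values were seen, has 3 probes with differences of −0.59, −1.10 and 0.08, which cannot be assigned to Psme2 or its copy here.

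Peptides are trimmed and loaded in the endoplasmic reticulum by a further set of proteins, of which 6 of 6 were measured and 4 were lower, with a median of −0.40. The trimming enzyme Erap1 (−0.83, and −0.39 with normexp at an offset of 50) and the editor Tapbpl (−0.73) were lowest. The glucosyltransferase Uggt1 (0.13) and the chaperone calnexin, Canx (0.02), were the highest.

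NLRC5 is the transactivator that drives class I genes, as CIITA drives class II genes, and it binds with RFX, NF-Y and CREB factors at the promoter's SXY module. Its signal was not lower. The brighter Nlrc5 probe (chr8:97051105-97051164) went from 2.05 to 2.53, a log2 difference of 0.48 or 1.39-fold higher, and the dimmer one (chr8:97030478-97030624) from −1.50 to −1.37, a difference of 0.12 that is below its software error of 0.21. Nlrc5 was thus the most raised of the 10 genes at its brightest probe, while 8 of the other 9 were lower.

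Apart from the RFX genes, the genes of these partners and of NF-κB were mostly close to 0. Of 10 measured RFX, NF-Y, CREB and NF-κB genes, the last not among the partners named above, 8 were lower, with a median of −0.15. The RFX subunit genes Rfxank (−1.23) and Rfxap (−1.11) were at least 2-fold lower, but both are dim, and with normexp at an offset of 50 they were at −0.42 and −0.03. Rfx5, the remaining subunit gene, singled out after its values were seen, had probes at 0.67 and −0.28.

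Interferon signaling feeds these promoters through the IRF factors among others, and its genes did not move as a block. Of 17 measured receptors and transducers 10 were lower and 7 higher, with a median of −0.14. Irf7, a factor of type I interferon responses, went from −0.59 to −3.95, a 10.3-fold lower signal (log2 difference −3.36, and −1.13 with normexp at an offset of 50). Its 1 probe, in 1 spot, is dim, with intensities of 95.3 and 7.44 units, so the size of this fold is uncertain. Irf8, a factor of myeloid and dendritic cells, was at 1.43 (0.47 with normexp at an offset of 50), also at a dim probe (8.32 and 18 units). Irf1, the interferon-γ-induced activator of class I and immunoproteasome genes, had probes that disagreed, at −0.32 for the brighter and 1.16 for the dimmer. Neither array detected Ifng itself well above background.

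**Figure D3:**
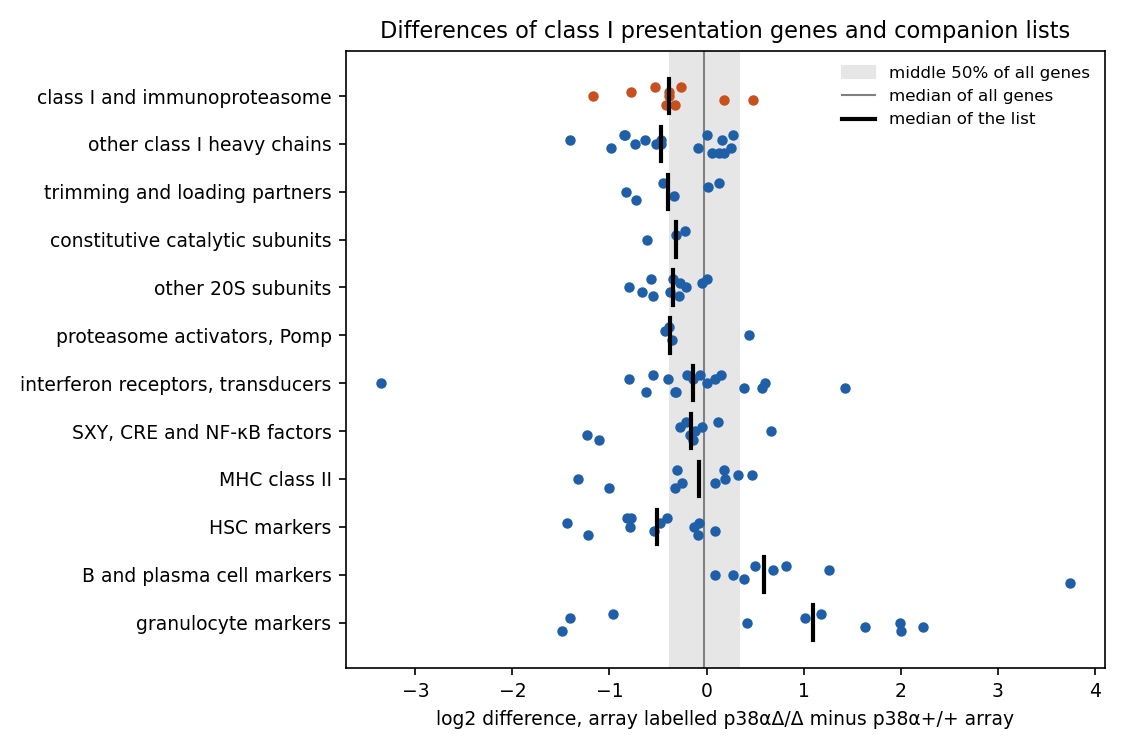
Log2 difference (x axis, array labelled p38αΔ/Δ minus p38α+/+ array) of each measured gene, at its brightest probe, in the class I and immunoproteasome set and in companion and marker lists (y axis), with list medians as black bars, the median of all genes as a grey line and the middle 50% of all genes shaded. The medians of the class I, loading and proteasome lists lie between −0.47 and −0.31, and those of the interferon, promoter factor and class II lists between −0.15 and −0.08. This gap depends on the processing. The median of the other class I heavy chains was −0.13 with normexp at an offset of 50. With averaged probes that of the proteasome activators was −0.20 and that of class II 0.14.

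The other class I and class I-like heavy chains were split. Of 17 measured 11 were lower and 6 higher, with a median of −0.47 that ran from −0.60 to −0.13 over the processings tried. The brightest of them, H2-Q7 and H2-Q4, singled out after their values were seen, were higher. H2-Q7 went from 6.72 to 6.90, a difference of 0.18 that is below its software error of 0.20. H2-Q4 went from 6.50 to 6.75, a difference of 0.25. The next brightest, H2-Q2, was at −0.52 at its brighter probe and at −1.04 at the other. H2-M2 (−0.98 over 10 spots) and H2-Q8 (−0.84), also singled out after their values were seen, were among the 11 lower genes. The summed scaled signal of the list, on the linear scale, went from 302 to 298. Mr1, which presents vitamin metabolites to MAIT cells, was 2.65-fold lower at a dim probe (−1.41, and −0.21 with normexp at an offset of 50). H2-T23, which encodes Qa-1, a ligand of NK cell receptors, went from 4.75 to 4.02, a difference of −0.74. H2-M3, which presents formylated peptides, was at 0.13. H2-T24, singled out after its values were seen, had probes at −0.09 and 1.92.

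The MHC class II list, of genes that serve peptides from outside the cell and 2 genes from outside the MHC, Cd74 and Ciita, had a median of −0.08 with 5 of 10 lower, and of 0.14 when the probes of each gene were averaged. H2-Aa, an α chain, was lowest (−1.32, and −0.62 with normexp at an offset of 50). Ciita, the class II counterpart of Nlrc5, went from 1.42 to 1.74, a difference of 0.32.

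Position within the MHC was not used to choose the genes. On chromosome 17 of mm9 the probes of Psmb9, Tap1, Psmb8 and Tap2 follow each other within 33.9 kb, Tapbp and H2-K1 are 67.1 kb apart on one side, and H2-D1 lies 1073 kb from Tap1 on the other. Within the 33.9 kb the differences were −0.78, −1.17, −0.53 and 0.18 in that order, so Tap2, whose probe is 15.3 kb from that of Psmb8, was the 1 gene of the 4 that was not lower. Genes from Tapbp to the last class I probe were sorted into classes by a fixed list of names. The 123 measured genes not on that list had a median of −0.08, with 68 lower. They include some relatives of class I genes, such as H2-T-ps. In the same stretch 9 genes listed as class II had a median of −0.30, with 6 lower. The 16 other genes listed as class I had one of −0.21, with 9 lower. These sets differ from the class I and class II lists above. They leave out genes outside the stretch, such as Mr1 and Ciita, and add genes within it, such as H2-K2, H2-M9 and H2-Eb2. The 719 measured genes of the rest of chromosome 17 had a median of −0.02, and the 7 described genes in the stretch one of −0.42.

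**Figure D4:**
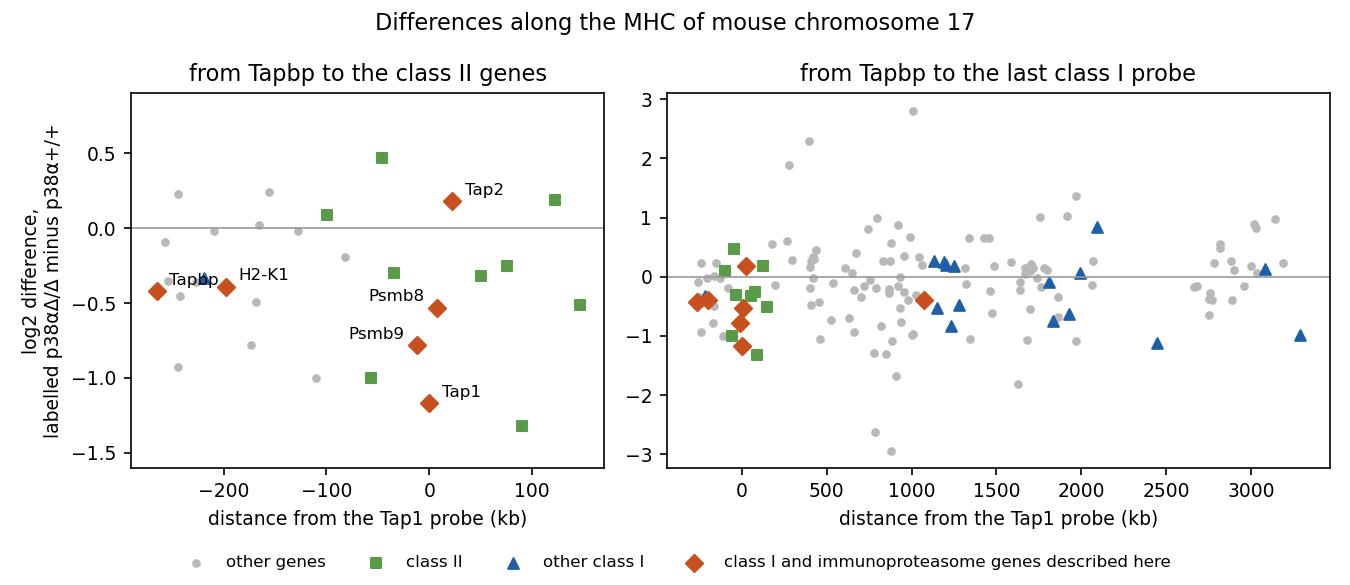
Log2 difference (y axis, array labelled p38αΔ/Δ minus p38α+/+ array) of genes on chromosome 17 against the distance of their probe from the Tap1 probe (x axis, kb), near Tap1 on the left and as far as the last class I probe, 3287 kb away, on the right. The differences of Psmb9, Tap1 and Psmb8 lie between −1.17 and −0.53 while Tap2 lies at 0.18, and class II and other genes lie on both sides of 0.

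Other cell types can carry class I genes, and several marker lists differed on the same arrays, although the LSK gate leaves out cells stained for CD4, CD8, B220, TER-119, Mac-1 or Gr-1. Of 12 HSC markers 11 were lower on the array labelled p38αΔ/Δ, with a median of −0.51, and Procr was at −1.22. All 8 measured B and plasma cell markers were higher, with a median of 0.59, 2 of them measured on 1 array only, and neither array detected Igll1 well above background. The summed linear signal of the B cell list, in units of the 75th percentile, went from 3.82 to 18.9, mainly through Jchain (0.18 to 3.93 on the log2 scale). Of 10 granulocyte markers 7 were higher, 6 of them at least 2-fold, and 2 were at least 2-fold lower, Elane (−1.41) and Ly6g, which was detected on the p38α+/+ array only. The summed signal of that list went from 189 to 264, mainly through the brightest probe of Itgam (log2 difference 0.42), another probe of which was at −0.42. The monocyte and dendritic cell list had a median of 0.22 over 6 of 9 measured, the T and NK cell list one of 0.44 over 6 of 9, with Cd3d, Cd3g and Ncr1 not well above background, the erythroid list 0.50 over 7 of 8, the megakaryocyte list 0.19 over 6 of 6 and the endothelial and stromal list 0.10 over 4 of 6. In RNA of sorted cells, fewer cells of a type and less RNA per cell cannot be told apart. The part of these markers in the values of the class I genes was not tested.

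**Figure D5:**
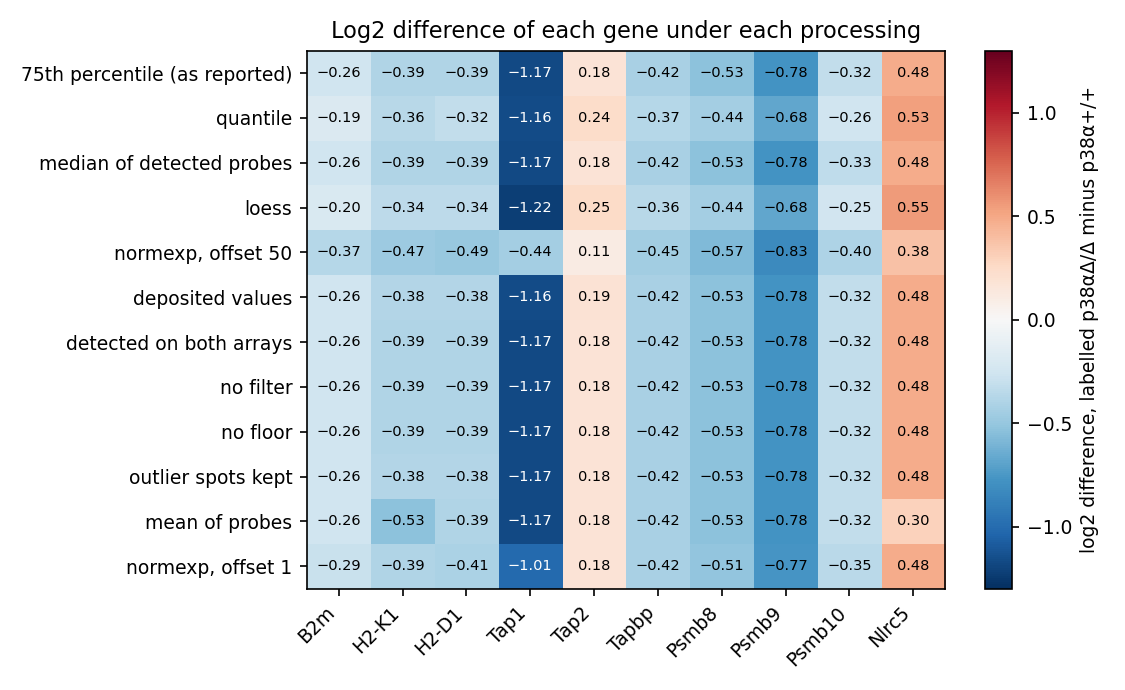
Log2 difference (colour and printed value, array labelled p38αΔ/Δ minus p38α+/+ array) of each gene (columns) under each way of processing the arrays (rows). Each column keeps its sign in all 12 rows, and the value that moves most is that of Tap1, from −1.17 to −0.44 with the offset of 50.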

How the data were processed

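RNA of LT-HSCs of each genotype was hybridized to 1 single-colour array. Per the labels and file headers, the scanner was read with Agilent Feature Extraction 11.5.1.1. The authors deposited the intensity of each spot, corrected for background by that software and not normalized between arrays, with probe positions on mm9. Their second deposited file gives log2 values after normalization (35795 probes), in which each column is the log2 intensity less a constant (7.16 and 6.84), with medians of −0.79. No annotation of mm9 was used, so whether a probe lies in an exon or UTR is not given.

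Here, control spots and outlier spots were left out, which removed 19 of 55681 probes. The log2 intensity was averaged over a probe's spots, and the array's 75th percentile was subtracted. Names came from RefSeq symbols (57.1% of probes). A gene was represented by its brightest probe and kept if well above background on at least 1 array (17201 genes). Where a dim side lay under the lowest signal that its array detected well above background, it was set to that signal. With 1 array per group no test was possible, and the number of arrays limits the precision.

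The 10 genes and all lists were chosen with earlier results of these data known. The genes named are the 10 and Mapk14, in each companion list those at least 2-fold different on both arrays or otherwise those with the largest differences, and a fixed few (Irf1, Irf7, Psmb5, Psmb6, Psmb7, Psme1, Psme2, H2-T23, H2-M3, Ciita), of which 1 more is not reported here. Marker genes were named after their values were seen. The alternatives were quantile, median and loess (span 0.3) normalization, normexp (offsets of 50 and 1), the deposited values, other filters, no floor, outlier spots kept and averaging over the probes of a gene. The calculations were tested on simulated data. Promoter letters came from RefSeq (GRCm38.p6). Python 3.11.15, numpy 2.4.6, pandas 2.3.3, R 4.3.3 and limma 3.58.1 were used.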

Additional observations from a re-analysis of the deposited data

How the results depend on the processing

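Over 11 alternatives, of which normexp with an offset of 1 was added after the data were seen, 8 of the 10 genes stayed lower and Tap2 and Nlrc5 stayed higher, and the median of the 10 ran from −0.44 to −0.34. A value was taken to have moved when it shifted by more than the SD between spots (0.12) or, for a count, by over 1.5 times. Of 275 recomputed values 261 did not move and 14 moved. Of the 275, 0 passed from beyond that error on one side of 0 to beyond it on the other. They are values of the 10 genes, of all genes and of the companion lists, not of single companion genes. Irf1, which is not among them, went from −0.32 to 0.42 with the mean of its probes, beyond that error on both sides. Among the 14 that moved, the class II median changed sign, from −0.08, which is within that error, to 0.14. With normexp at an offset of 50, 0 of the 10 genes were at least 2-fold lower, against 1, and 125 and 49 of all genes were at least 2-fold lower and higher, against 1154 and 706. That offset shrinks differences of dim probes by construction, and with an offset of 1 the counts were 778 and 495. The median of the other class I heavy chains was −0.13 with the offset of 50, −0.28 with the deposited values and with the filter on both arrays, −0.30 without a filter and −0.60 after averaging over each gene's probes. That averaging also gave −0.20 for the proteasome activators and 0.14 for the class II genes. The cause was not tested for the mean of probes, and the filters change which genes are counted. Single genes that moved were H2-K1 (−0.53 with the mean of its probes), Nlrc5 (0.30 with the same) and Tap1 (−0.44 and −1.01 with the offsets of 50 and 1). No replicate could be left out, since each genotype has 1 array. No paired analysis was possible because each group has a single sample.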
